A study of Mus musculus with 3 samples.

Results

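The regions described here are 4571 GATA4 peaks that lay in intergenic sequence at a moderate distance from the nearest gene in adult mouse stomach. A peak was a member when the deposited annotation called it intergenic, placed it in no repeat and no CpG island, and put its centre over 10 kb and at most 100 kb from the nearest transcription start site (TSS). These made up 8.99% of the 50869 peaks in the list. Of the 15894 intergenic peaks, 8453 lay in a repeat or CpG island, 2006 others lay within 10 kb of a TSS and 864 lay over 100 kb away. With repeats and CpG islands kept, the class would have held 8365 peaks. The choice among called peaks used position and annotation only, and fold enrichment played no part in it. The authors' caller had already kept only peaks that passed its q-value limit against the input. Peaks too low to pass are therefore missing from the fold enrichments below.

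GATA4 was mapped by chromatin pull-down and sequencing in 3 libraries from stomach mucosa of adult mice aged 10 to 12 months. There were 2 GATA4 pull-down libraries and 1 input library, which was chromatin without pull-down. All 3 came from the strain labelled G4fb/fb R26 Bira/Bira, so both alleles of Gata4 carried the FlagBio tag and both Rosa26 alleles carried the biotin ligase BirA in the pull-downs and in the input alike. Tagged GATA4 with its DNA was captured on streptavidin beads. The authors called peaks on the pooled pull-downs against the input, so each peak has 1 value, no value exists per replicate, and no test between samples was possible. The labels do not say whether the codes of the pull-downs mark separate animals, and the input carries the code of pull-down replicate 1. The caller kept 38770530 pull-down tags and 23023152 input tags, and exact Clopper-Pearson 95% intervals below cover counting error only. Peaks do not measure expression, so the labelled tissue could not be checked against marker levels.

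GATA4 is a zinc-finger transcription factor that binds short GATA-containing DNA sequences. It takes part in the development and upkeep of the glandular stomach, intestine, heart and other organs of endodermal and mesodermal origin. Factors of this kind bind both promoters and distal elements, and distal elements can act on genes far along the chromosome, not always on the nearest one. The annotation credits each peak to the gene with the nearest TSS, and a gene named beside a peak below is that nearest gene and no more.

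The sequences of the distal peaks themselves are not printed, since no genome of their build, mm9, was used here. The first sequences shown are mature microRNAs, because some distal peaks had a microRNA gene as their nearest gene and the mature strand is what such a gene makes. Of the members, 109 were nearest to 67 microRNA genes, and 57 of those genes were matched to 85 mature sequences in RefSeq (GRCm38.p6). The sequences below come from microRNA genes with a member at 5-fold or more, with the seed (bases 2 to 8) in capitals, 5′ to 3′.
mmu-miR-23a-3p: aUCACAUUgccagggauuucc
mmu-miR-148a-3p: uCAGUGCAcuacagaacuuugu
mmu-miR-365-3p: uAAUGCCCcuaaaaauccuuau
mmu-miR-147-5p: uGGAAACAuuucugcacaaacuag
mmu-miR-3473f: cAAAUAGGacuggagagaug
mmu-miR-6934-5p: uUGGUGGAgacagcaagggugg
mmu-miR-6935-3p: uGUUCUUUgucuuuccacag

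MicroRNA genes had distal peaks of ordinary height. The median fold enrichment, the pull-down pileup over the local input in the values of the authors' caller, was 4.12 over the 109 peaks, against 4.26 over all members. Of the 109, 16 reached 5-fold, which 21.4% of all members and 30.3% of all peaks did. The strongest was nearest to Mir6935, 30.7 kb downstream on chromosome 11 (120177493 to 120178554), at 9.69-fold. The peak nearest to Mir148a lay 51.0 kb upstream on chromosome 6 (51270636 to 51271242) at 5.71-fold, and 3 members in all were credited to that gene. The peak nearest to Mir365-2 lay 20.6 kb downstream on chromosome 11 (79560347 to 79560613) and reached 6.47-fold. The peak nearest to Mir23a lay 10.1 kb upstream on chromosome 8 (86722095 to 86722526) and reached 5.80-fold. Among the 85 mature sequences, 1 seed was shared, CAGUGCA, by miR-148a-3p and miR-152-3p. These microRNAs were chosen after their values were seen.

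The next sequences are promoters of nearest genes that carried a GATA4 peak over the start as well as a strong distal peak. They are the 250 bases before the TSS from RefSeq (GRCm38.p6, another build than the mm9 of the peaks), for the 3 strongest members whose gene has 1 start in that table and a deposited peak that covers the start. Capitals mark the 4 GATA words searched on either strand, which were AGATAA and also AGATAG, and with another first letter TGATAA and also TGATAG. Med13l lies at chr5:118560469-118560718, plus strand, Mdga1 at chr17:29887883-29888132, minus strand, and Syde2 at chr3:145987620-145987869, plus strand.
Med13l: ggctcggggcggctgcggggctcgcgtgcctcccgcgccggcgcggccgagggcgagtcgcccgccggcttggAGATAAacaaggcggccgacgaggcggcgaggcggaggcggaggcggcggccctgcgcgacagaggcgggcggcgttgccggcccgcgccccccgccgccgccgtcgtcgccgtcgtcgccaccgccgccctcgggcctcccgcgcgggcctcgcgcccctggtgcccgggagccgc
Mdga1: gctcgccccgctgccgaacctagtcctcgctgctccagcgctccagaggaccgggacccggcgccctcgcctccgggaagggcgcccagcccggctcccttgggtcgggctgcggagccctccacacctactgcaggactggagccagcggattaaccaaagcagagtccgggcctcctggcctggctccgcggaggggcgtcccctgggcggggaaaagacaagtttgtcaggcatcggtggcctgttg
Syde2: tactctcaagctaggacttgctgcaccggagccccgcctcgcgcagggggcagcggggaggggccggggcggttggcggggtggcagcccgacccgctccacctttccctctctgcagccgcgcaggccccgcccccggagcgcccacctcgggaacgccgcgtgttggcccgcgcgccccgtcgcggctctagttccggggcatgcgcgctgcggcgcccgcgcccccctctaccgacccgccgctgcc

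Med13l, a subunit of the Mediator kinase module, had 1 such GATA word in this window. Mdga1, a membrane-anchored surface glycoprotein, and Syde2 had none. Over all nearest genes of the members, 19.2% of 2311 promoters held at least 1 of these words, against 26.5% of 32851 RefSeq promoters of the same length. Where the nearest gene also had a peak within 1 kb, a GATA word stood in 14.8% of 1595 promoters. A match of these letters describes the sequence and shows no binding. Base composition moved with these shares. The median GC content was 58.4% in promoters of nearest genes and 62.4% in those with a peak, against 52.4% in all promoters, and its part in the difference was not tested.

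The distal peaks were mostly of modest height and lay close to the level of other intergenic peaks. The median fold enrichment was 4.26 (95% interval 4.14 to 4.29, quartiles 3.72 and 4.89) in members, against 4.37 in all peaks. Intergenic peaks within 10 kb of a TSS and those over 100 kb away both had a median of 4.29, and peaks within 1 kb of a TSS, of any annotation, had 5.23. At 5-fold or more stood 976 members, or 21.4% (20.2 to 22.6), against 30.3% of all peaks. The share was 21.5% in the intergenic peaks within 10 kb and 18.8% in those over 100 kb away, against 55.3% in peaks within 1 kb of a TSS. No test was made between these classes.

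There were 43 members at 10-fold or more, 0.941% (0.682 to 1.27), against 1.04% of all peaks. The share was 0.598% in the intergenic peaks within 10 kb and 0.810% in those over 100 kb away. Ranked by the authors' −log10 q-value, 252 members, 5.51% (4.87 to 6.21), stood among the top peaks that make up 10.0% of the list. Of the intergenic peaks within 10 kb 5.78% stood there, and of those over 100 kb away 5.21%. Members had a median length of 226 bp, against 268 bp in all peaks and 469 bp within 1 kb of a TSS. The other intergenic classes were about as short, at 237 bp within 10 kb and 222.5 bp over 100 kb away. Together the members covered 1249 kb. The summit of the median member rested on 21 pull-down tags (exact Poisson 95% interval 13.0 to 32.1), against 22 for the median of all peaks. At that depth neighbouring fold values of single members cannot be ordered. A stricter limit of 5 on the −log10 q-value left 1112 members, 87.8% of them at 5-fold or more.

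**Figure D1:**
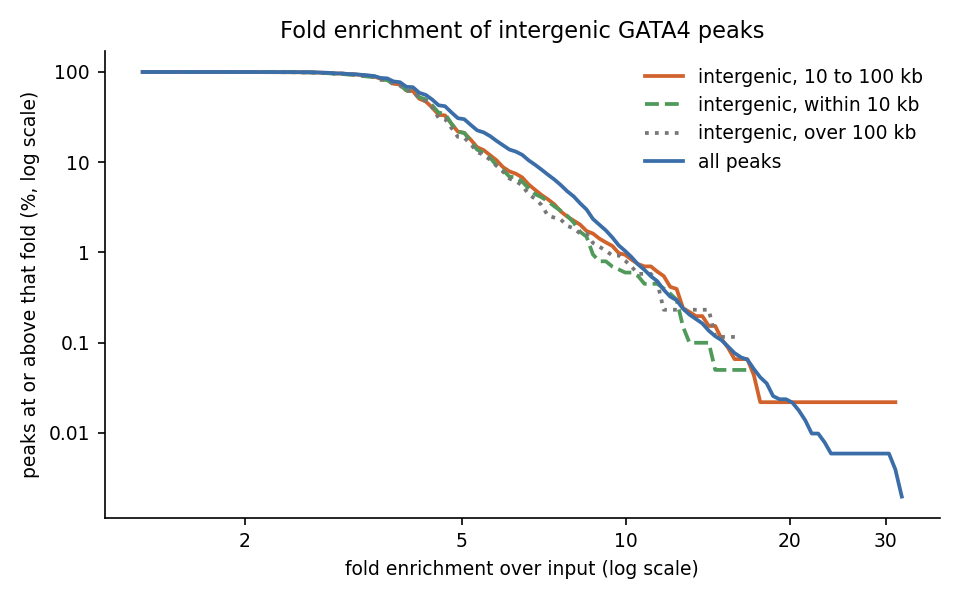
Share of peaks at or above each fold enrichment, both axes on a log scale, for intergenic peaks 10 to 100 kb from a TSS, intergenic peaks within 10 kb and over 100 kb, and all peaks. At 5-fold the share was 21.4% in members against 30.3% in all peaks, and at 10-fold 0.941% against 1.04%; between these the lines lie apart, with 2.25% against 4.18% at 8.03-fold.

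The input behind a peak was recovered from the deposited pileup and fold. It stood at the genome-wide background of 1.98 scaled tags in 74.4% of members, against 70.5% of all peaks. The lowest fold among the members at this background was 3.12. The input was more than 2 times that background in 288 members, 6.30%, and these had a median fold of 3.20, against 4.29 in the other members. Of the 288, 6.60% reached 5-fold, against 22.3% of the others. Input is the denominator of fold, so these differences in fold are partly built in. The members of highest pileup all belonged to this set. A peak nearest to 4930467E23Rik on chromosome 8 (19759565 to 19760110) held 219 pull-down tags but reached only 1.39-fold, over an input of 93 scaled tags. A peak nearest to the vomeronasal receptor gene Vmn1r77 on chromosome 7 held 195 tags and reached 2.34-fold. The other 3 of the 5 members of highest pileup were all credited to Gm21119, on an unplaced contig of chromosome 8, and reached 1.81-fold to 2.30-fold. Tag number and enrichment therefore did not rank these members alike.

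Members thinned out steadily with distance, and most lay upstream of the nearest TSS. The median distance was 29.3 kb (quartiles 18.1 and 49.1). There were 1387 members at 10 to 20 kb, 956 at 20 to 30 kb, 661 at 30 to 40 kb and 132 at 90 to 100 kb. The genome available in each distance bin was not measured, so these counts show no density. Upstream lay 2776 members, 60.7% (59.3 to 62.2), and downstream 1795. In all peaks of any annotation at the same distances 41.0% lay upstream, and in all peaks of the list 36.2%. Intergenic peaks in repeats or CpG islands at the same distances lay upstream in 63.7% of cases. In intergenic peaks outside these, the share was 83.0% within 10 kb and 43.6% over 100 kb away.

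The upstream share was highest next to the lower bound. It was 70.8% (68.3 to 73.2) at 10 to 20 kb, 62.1% at 20 to 30 kb and 44.7% (36.0 to 53.6) at 90 to 100 kb. Peaks inside a gene are annotated as intron or exon and cannot be members, and the part of this in the upstream share was not tested. Intronic peaks at 10 to 100 kb lay upstream of their nearest TSS in only 20.9% of cases. Among all 17568 peaks at these distances, the members were 26.0% and peaks in introns 39.5%.

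**Figure D2:**
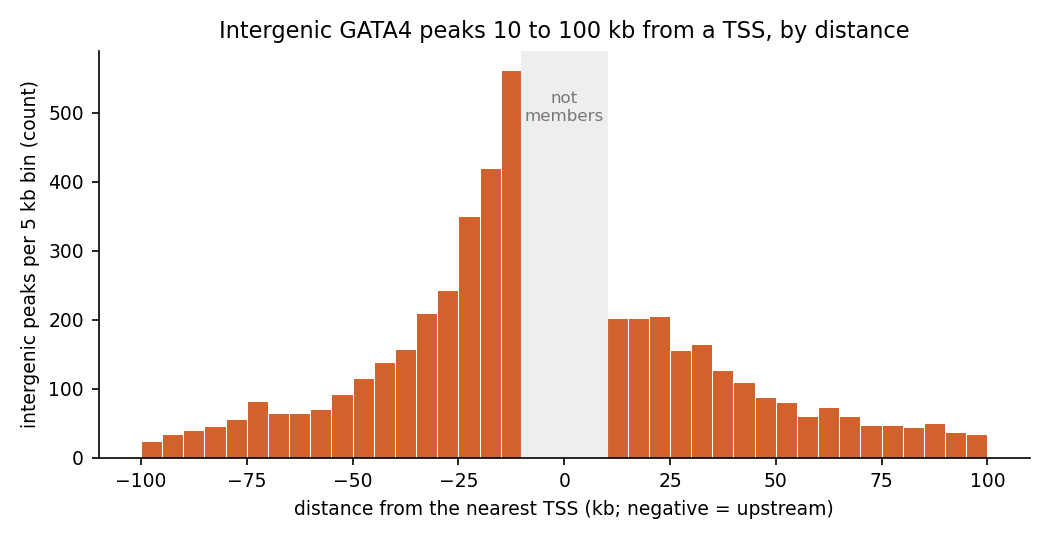
Number of intergenic GATA4 peaks 10 to 100 kb from the nearest TSS in bins of 5 kb, with upstream positions negative and the grey band marking distances that are not part of the class. Of the 4571 peaks, 2776 lie on the upstream side and 1795 downstream, and the tallest bars stand on the upstream side next to the band.

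The median fold showed no such course with distance and was between 4.12 and 4.29 in every bin of 10 kb. The share at 5-fold or more ranged over the bins between 16.6% and 24.3%, without a steady order and with overlapping intervals. It was 20.4% to 23.9% in the bins up to 50 kb and 17.4% at 50 to 60 kb. It was 24.3% at 60 to 70 kb and 16.6% to 18.2% in the bins beyond 70 kb. It was 21.5% upstream and 21.1% downstream, with overlapping intervals (20.03 to 23.12 and 19.19 to 23.02). All 43 members at 10-fold or more lay within 76.6 kb of the TSS. The bins at 80 to 90 kb and 90 to 100 kb held only 181 and 132 members, with the highest at 8.25-fold and 9.10-fold.

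The bounds cut through a continuous range of distances. Just inside 10 kb lay peaks nearest to Gata5os at 6.51-fold, Frs3os at 7.50-fold and Sowaha at 5.001-fold. Just outside it, and so not counted, lay peaks nearest to Irx2 at 3.72-fold, Tac4 at 5.08-fold and F3 at 2.57-fold. Just inside 100 kb lay peaks nearest to Hrh1 at 3.08-fold, 4930401O12Rik at 4.72-fold and Smad6 at 3.92-fold, and just outside it peaks nearest to Ankrd55 at 5.08-fold, Sp110 at 3.64-fold and Sec31a at 4.55-fold.

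The strongest member lay 32.8 kb downstream of the TSS of the noncoding gene Gm1968, on chromosome 16 (29945916 to 29946810). It was 31.4-fold on 156 tags, and was second in the whole list. The other members credited to Gm1968 were at 4.29-fold and 4.52-fold, while 4 intergenic peaks 165 to 196 kb from the same TSS, outside the class by distance, were between 5.32-fold and 8.08-fold.

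The second member in rank lay 71.5 kb upstream of Med13l, on chromosome 5 (118938935 to 118939425), at 17.3-fold on 85 tags. A second member there, 76.9 kb upstream (118933490 to 118934074), stood at 8.70-fold, and the peak over the Med13l promoter shown above stood at 9.10-fold. The third, 21.5 kb upstream of the noncoding gene 1700081H04Rik on the same chromosome (119536122 to 119537298), stood at 16.9-fold. All 3 peaks credited to 1700081H04Rik were members, and the others stood at 7.66-fold and 4.55-fold. Both genes thus had more than 1 member above the median of promoter-near peaks.

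Cbfa2t3, which encodes a corepressor of the ETO family, had 7 members between 21.1 and 37.3 kb upstream on chromosome 8. The nearest of them (125243656 to 125244573) stood at 15.7-fold and the farthest (125260011 to 125260574) at 6.69-fold. The 5 members between these were at 3.70-fold to 5.11-fold. The strongest peak within 1 kb of a Cbfa2t3 TSS was at 7.06-fold.

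Vegfa, the gene of an angiogenic growth factor, had 20 peaks, of which 10 were members and 9 of those lay downstream of its gene. The strongest lay 51.7 kb downstream on chromosome 17 (46110169 to 46110672), at 15.3-fold on 75 tags. The 9 other Vegfa members stood at 3.66-fold to 4.89-fold, and the peak over the Vegfa promoter at 10.9-fold. The member at 15.3-fold therefore stood apart from the other Vegfa members by height.

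Mdga1 had its strongest member 41.1 kb upstream on chromosome 17 (30065663 to 30066204) and Syde2 its strongest 23.3 kb upstream on chromosome 3 (145627400 to 145627728), both at 14.9-fold on 73 tags. Their promoter peaks, over the sequences shown above, stood at 7.11-fold and 9.10-fold. Gse1 had a member 71.9 kb upstream on chromosome 8 (122940211 to 122941466) at 13.9-fold. Rbpms, an RNA-binding protein gene, had one 63.2 kb upstream on chromosome 8 (35103320 to 35103815) at 13.2-fold. Ctrb1, which encodes the digestive protease precursor chymotrypsinogen B, had one 14.4 kb upstream on chromosome 8 (114228974 to 114229742) at 13.1-fold, and none within 1 kb of its TSS.

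The noncoding gene 8430430B14Rik was credited with 2 of the 20 strongest members, at 13.9-fold and 12.7-fold, 27.8 and 16.0 kb downstream on chromosome 17. Bicra, Usp3 and the noncoding 0610040F04Rik each had a member at 12.7-fold. Bicra encodes a subunit of a BAF chromatin remodelling complex and Usp3 a deubiquitinase. Zdhhc19, a palmitoyltransferase gene, and Muc5ac, the gel-forming mucin of surface pit cells, had members at 12.6-fold. Bcl9l, a coactivator of beta-catenin, had one at 12.5-fold, Zfp36l1, an RNA-binding protein that promotes mRNA decay, one at 12.3-fold, and Gpr37l1, an orphan receptor gene, one at 12.0-fold.

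The 43 members at 10-fold or more were longer than the other members at the median. Their median length was 478 bp (quartiles 372.5 and 572), against 225 bp in the other 4528. They lay upstream in 58.1% of cases, against 60.8% of the others. Another peak of any kind lay within 10 kb of 74.4%, against 62.8% of the other members and 65.9% of all peaks. None of the 43 stood over an input above 2 times the background, while 288 of the others did. Input is the denominator of the fold by which the 43 were chosen, so this contrast is partly built in. They were credited to 42 genes, and 28 of these also carried a peak within 1 kb of the start, against 1598 of the 2431 genes of the other members. Of all protein-coding genes, 57.4% carried one. Length and height are not independent measures of a called peak.

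The longest members stood side by side. Downstream of Pld4, on chromosome 12, 4 members ran from 114014056 to 114022968 with lengths of 1572, 1802, 1441 and 3296 bp. Their folds were 8.45, 7.26, 3.45 and 8.29. The one at 3.45-fold lay over an input of 6 scaled tags, and the others over 2 to 2.42. The remaining member among the 5 longest, nearest to the pseudogene 6820431F20Rik on chromosome 8, was 1796 bp long at 2.51-fold over an input of 42.5.

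Each of 2438 genes was the nearest gene of at least 1 member. One member was credited to each of 1539 genes, 63.1%, and 2 members to each of 478. At the other end, 86 genes with 6 or more members held 888 of them, 19.4%. Protein-coding genes were nearest to 3765 members, 82.4%, and noncoding RNA genes to 684. Among 21031 protein-coding genes, 2039, or 9.70%, had a member.

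Genes with a distal peak often had a promoter peak as well. Of the 2438, 1601 had a promoter peak (within 1 kb of the start), 65.7% (63.7 to 67.6). Among the protein-coding ones the share was 73.6% (71.6 to 75.5), against 57.4% of all 21031 protein-coding genes. The space around genes was not measured, and its part in this difference was not tested. Where a gene had both, the distal peak was usually the lower: the strongest member was above the strongest peak within 1 kb in 417 of 1601 genes, 26.0% (23.9 to 28.3). The median of the strongest member was 4.52-fold, against 5.91-fold for the strongest peak within 1 kb.

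Ihh, a hedgehog ligand gene named here after its values were seen, had 5.31-fold for its strongest member against 14.2-fold within 1 kb of its TSS. In 308 genes, 12.6%, members were the only peaks credited. The strongest of these after 1700081H04Rik were at Gpr141, 11.7-fold, Actbl2, 11.3-fold, and Ereg, 10.0-fold. Gpr141 and Actbl2 were likewise named after their values were seen.

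**Figure D3:**
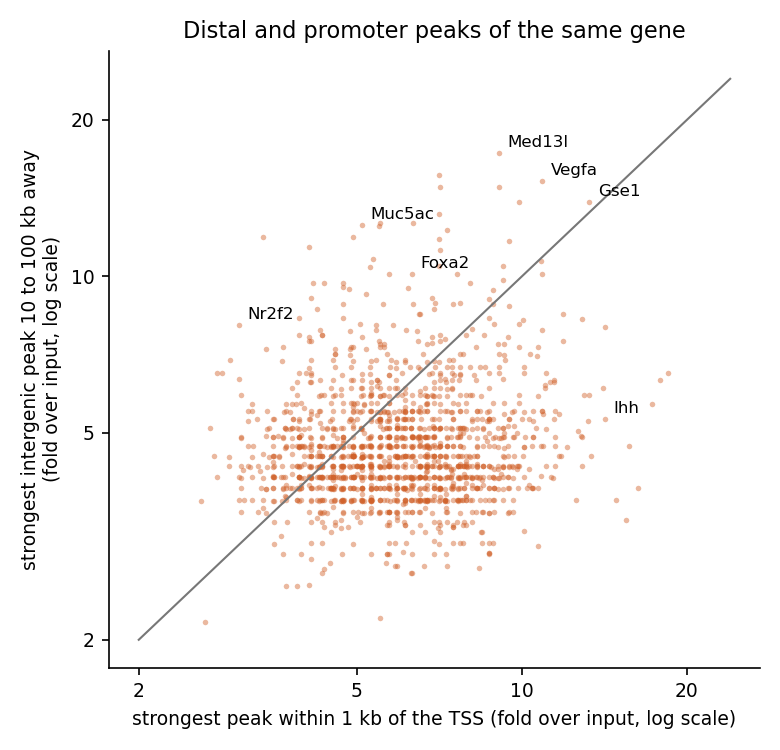
Strongest intergenic peak 10 to 100 kb away against the strongest peak within 1 kb of the TSS of the same gene, both as fold over input on a log scale, for 1601 genes; the line marks equal values. Most points lie below the line, 417 lie above it, and Muc5ac and Med13l are among those above.

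The gene lists grouped the members by role. They held 385 different genes, of which 92, 23.9%, had a member. The share over all protein-coding genes was 9.70%. The intergenic space around the listed genes was not measured, and no test of the difference was made. Housekeeping genes, listed as a contrast, had members at 5 of 20.

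Pit mucous genes had members at 2 of 17. Muc5ac had 1 of its 14 peaks in the class, 17.8 kb upstream on chromosome 7 (148956801 to 148957364), on 83 tags, and that peak stood above the 5.11-fold of its promoter and all its other peaks (2.92-fold to 5.31-fold). Foxq1, a forkhead factor needed for Muc5ac expression in mouse pit cells, had 2 members, the stronger at 6.31-fold, against 11.5-fold within 1 kb of its TSS. The neck and antral gland mucous list, which also held progenitor and Wnt target genes, had members at 6 of 12. The 6 were Agr2, Lrig1, Axin2, Spdef, Muc6 and Cd44, so this is not a share of mucous cell genes alone. Agr2, an endoplasmic reticulum protein of mucin-producing cells, had its only peak in the class, 11.1 kb upstream on chromosome 12 (36708285 to 36708591), at 7.30-fold. Lrig1, a marker of epithelial progenitors, had a member at 6.49-fold, the Wnt target Axin2 one at 5.32-fold, and Spdef, a factor of mucous cell differentiation, had 5 members, the strongest at 4.69-fold.

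Parietal cell genes had members at 7 of 20. Ppargc1a, a coactivator of mitochondrial gene expression, had its only peak 15.5 kb upstream on chromosome 5 (51974285 to 51974585), at 7.50-fold on 36 tags. Hrh2, the histamine receptor that drives acid secretion, had 4 members up to 5.91-fold, Slc26a9, a chloride transporter gene, 3 up to 5.31-fold, and Ezr, the gene of the membrane linker ezrin, 4 up to 4.92-fold. Of the 9 chief cell genes, only Xbp1, a regulator of the secretory pathway, had members, 3 in number and up to 4.29-fold. Gastric endocrine genes had members at 2 of 18 (1 of 18 without members at high input), with 8.30-fold for the strongest at Nkx6-3 and 5.43-fold at Isl1, both genes of homeodomain factors.

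Of 33 foregut transcription factor genes, 10 had a total of 25 members, with a median of 5.32-fold against 4.26-fold over all members. At 5-fold or more stood 14 of the 25, against 21.4% of all members and 30.3% of all peaks. Foxa2, a forkhead factor that opens chromatin in foregut endoderm, had 5 members, all downstream at 60.1 to 85.2 kb. The strongest, on chromosome 2 (147794364 to 147794811), stood at 10.1-fold on 51 tags, against 6.31-fold within 1 kb of its TSS. Foxa1 had 2 members, at 6.87-fold and 5.32-fold, against 6.91-fold within 1 kb of its TSS. Elf3, an epithelial ETS factor, had 5 downstream members up to 7.42-fold, and Klf4, a factor of epithelial differentiation, 3 up to 6.91-fold. At Foxa2 the distal peak stood above the promoter peak, at Foxa1 it stood level with it, and at Klf4 it stood below the 9.31-fold of the promoter peak.

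GATA factor and cofactor genes had members at 6 of 21. Gata4 itself had 6, all upstream between 19.5 and 81.1 kb on chromosome 14. From near to far they stood at 9.04-fold, 4.52-fold, 4.72-fold, 5.90-fold, 3.53-fold and 4.12-fold. Those at 5.90-fold, 3.53-fold and 4.12-fold stood over an input more than 2 times the background. Its highest intergenic peak, 10.8 kb upstream, lay in a CpG island and is not a member. Gata6 had 2 members on chromosome 18, at 7.70-fold 43.0 kb upstream and at 3.07-fold 52.5 kb upstream, and its higher peak 131.7 kb upstream lay past the bound. Zfpm1, which encodes the GATA cofactor FOG1, had 13 members, all upstream and none above 5.31-fold, against 8.71-fold within 1 kb of its TSS. Nr2f2, an orphan nuclear receptor gene, had a member at 8.05-fold 46.4 kb upstream on chromosome 7 (77557884 to 77558229), against 3.05-fold within 1 kb of its TSS.

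Of 48 genes of Wnt, Notch, hedgehog, BMP and EGF signalling, 20 had a member. The 50 members at these genes were of ordinary height, with a median of 4.29-fold. Of the 50, 8 reached 5-fold, which 21.4% of all members and 30.3% of all peaks did. Ereg, the EGF receptor ligand epiregulin, had as its only peak a member 23.8 kb downstream on chromosome 5 (91527264 to 91527600), at 10.0-fold on 49 tags. The BMP signal inhibitor Smad6 had members at 6.49-fold and 3.92-fold. The TGF-beta signal transducer Smad3 had 5 up to 5.51-fold, and the Notch target Hes1 had 3 up to 5.31-fold.

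Epithelial structure genes had members at 7 of 22. Cldn3, a tight junction claudin gene, had one 11.8 kb upstream on chromosome 5 (135449888 to 135450603), at 10.4-fold on 51 tags, against 5.28-fold within 1 kb of its TSS. The keratin gene Krt19 had 4 members up to 7.43-fold, the tight junction gene Tjp1 had 5 up to 6.67-fold, and the adhesion gene Epcam had 2 up to 5.51-fold.

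Stress and early response genes had members at 10 of 20, with 8 of their 23 members at 5-fold or more. Over all members 21.4% reached 5-fold, and over all peaks 30.3%. Many genes of this list, though not all, are switched on quickly by growth factors and by cell stress. The AP-1 subunit gene Jun had a member 91.6 kb upstream on chromosome 4 (94810352 to 94810672), at 9.10-fold, against 4.12-fold within 1 kb of its TSS. Egr1, an immediate early factor gene, had a member at 7.06-fold, the AP-1 subunit gene Fos had 4 up to 6.91-fold, and Atf3, a stress response factor gene, had 2 up to 6.31-fold, against 17.9-fold within 1 kb of the Atf3 TSS.

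Lists of other tissues and cell types had members at between 1 and 3 genes each. Their shares lay on both sides of the 9.70% of all protein-coding genes. The stomach lists of pit mucous (2 of 17), chief cell (1 of 9) and gastric endocrine genes (2 of 18) fell in the same range of counts. The fibroblast, hepatic, smooth muscle, endothelial and squamous forestomach lists had larger shares than these stomach lists. Smaller shares were found in the intestinal, immune, enteric neural and glial, and cardiac lists. Intestinal genes had a member at 1 of 24 (Apob, 4.29-fold), immune genes at 1 of 20 (Kit, 3.52-fold), enteric neural and glial genes at 1 of 15 (Nos1, 4.09-fold) and cardiac genes at 1 of 15 (Tbx5, 3.92-fold). Squamous forestomach genes had members at 3 of 24, with the highest at Lor, 4.89-fold. Smooth muscle genes had them at 2 of 15, highest at Tpm1, 5.32-fold. Endothelial genes had them at 2 of 15, highest at Pecam1, 5.88-fold. Fibroblast genes had them at 3 of 15, highest at Twist2, 4.69-fold, and hepatic genes at 3 of 15, highest at Ttr, 5.08-fold. In the housekeeping list the highest was a member 14.2 kb upstream of Actb, at 8.10-fold, so a high distal peak was not limited to genes of stomach cell types.

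**Figure D4:**
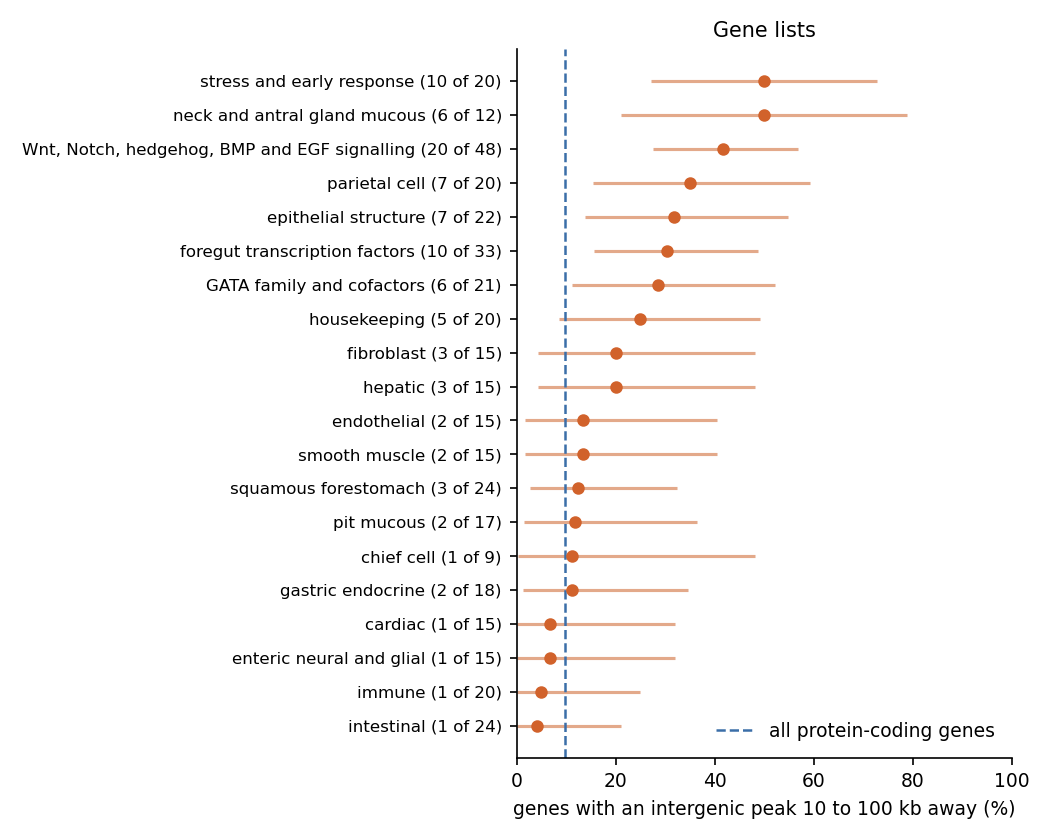
Percent of the genes in each of 20 lists that are nearest to an intergenic GATA4 peak 10 to 100 kb away, with exact 95% binomial intervals for counting error and the number of genes in brackets; the dashed line marks the 9.70% of all protein-coding genes. The intervals of small lists are wide, and those of the stress, neck mucous, signalling, parietal, epithelial, foregut factor and GATA lists lie above the line. The neck mucous list also holds progenitor and Wnt target genes. No test was made, and the lists were chosen with earlier results of these data known. At a −log10 q of at least 5 the counts fell from 6 to 3 (neck mucous), 7 to 3 (parietal) and 20 to 7 (signalling), and by smaller parts in the other lists named here.

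Another peak of any kind lay within 10 kb of 2877 members, 62.9% (61.5 to 64.3), against 65.9% of all peaks. In the intergenic peaks within 10 kb of a TSS this share was 90.5%, and in those over 100 kb away 48.5%. Linked by gaps of at most 10 kb, the members fell into 2943 groups, and 1694 members stood alone. Members with a neighbour reached 5-fold in 22.5% of cases (20.97 to 24.06), against 19.4% (17.56 to 21.39) of those alone. There were 14 groups of 10 or more members, and they held 322 members, 7.04%. With 1 member per group, the one of highest fold, 1.46% reached 10-fold. The groups described next were chosen after their values were seen, for their number of members or their input.

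The group with the most members lay between Hrh1, a histamine receptor gene, and Atg7, an autophagy gene, on chromosome 6 (114442974 to 114593303). It held 92 peaks in 150 kb, 88 of them members, none above 8.34-fold, and 23 of the members stood over an input more than 2 times the background. Hrh1 was the nearest gene of 80 members and Atg7 of 47, the most of any genes. Only 41 of the Hrh1 members lay on chromosome 6. The other 39 lay on unplaced sequence, where the annotation also places an Hrh1 start, in a group of 84 peaks (2373101 to 2512864). Whether the 2 stretches are copies of each other was not tested. Of the Hrh1 members, the median fold was 4.32 on chromosome 6 and 4.52 on the unplaced sequence.

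Another dense group lay on chromosome 8 (126062462 to 126153059) among 5S ribosomal RNA genes, with 90 peaks in 90.6 kb, 36 of them members, up to 8.77-fold. Its members include 25 nearest to Gm23284, a 5S ribosomal RNA gene. Such genes occur in near-identical copies, and how the authors' alignment placed reads between copies is not stated, so these values are uncertain. Upstream of Gse1 and near the noncoding A330074K22Rik, a group of 44 peaks on chromosome 8 (122878005 to 123000039) held 29 members, the strongest being the 13.9-fold peak named above. Gse1 was credited with 29 members in all and A330074K22Rik with 15.

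Beside Cebpb and the noncoding A530013C23Rik, on chromosome 2 (167505446 to 167631787), 38 peaks included 24 members, none above 6.91-fold. Sik1, a salt-inducible kinase gene, was credited with 25 members, and Tob1, an antiproliferative gene, with 16, up to 7.43-fold and 6.11-fold. Gm21119 was credited with 17, none above 2.95-fold. A group on chromosome X near G530011O06Rik (166423975 to 166447009) held 12 members, all over an input more than 2 times the background, with a median of 2.63-fold. High input thus went with many peaks of low fold in some groups, and near-background input with peaks of ordinary fold in others. Since input is the denominator of fold, the 2 are not independent measures.

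**Figure D5:**
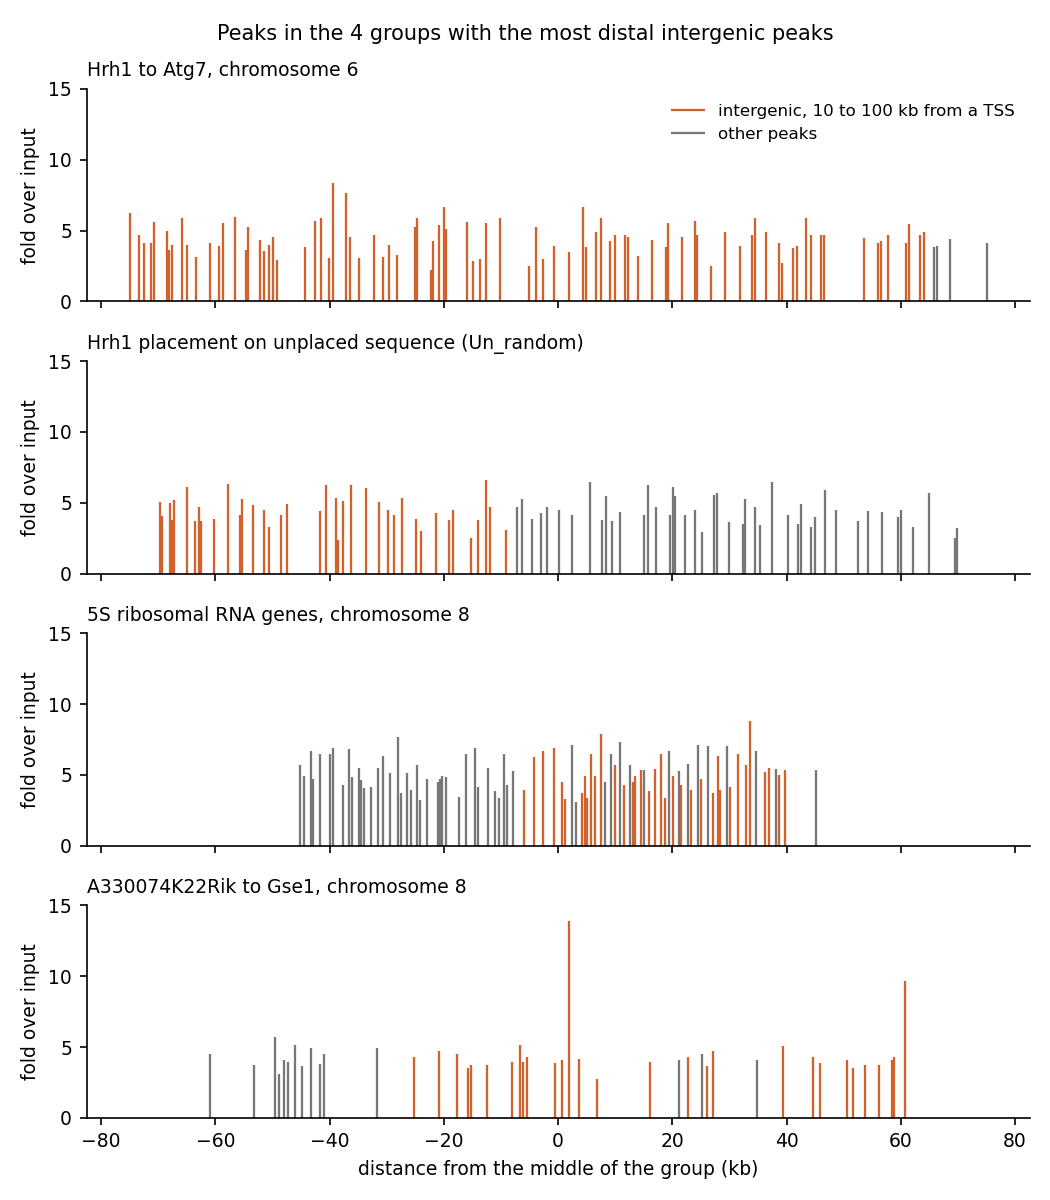
Peaks in the 4 groups with the most distal intergenic peaks, as fold over input against the distance in kb from the middle of the group; each bar is a peak, orange for intergenic peaks 10 to 100 kb from a TSS and grey for the others. The first 3 groups hold many peaks, all below 9-fold, with members between 2.24-fold and 8.77-fold. The fourth, toward Gse1, holds a peak at 13.9-fold and another at 9.69-fold among lower ones.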

How the data were processed

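Bowtie2, MACS2 and HOMER and the build mm9 are named in the submitters' processing notes. Per the file headers, MACS 2.1.0.20140616 called peaks on both pull-downs pooled against the input at a q-value limit of 0.05, kept 1 tag per position, extended tags to 161 bp and scaled pull-down tags by 0.594. The deposited tables hold summit pileup (a coverage signal in scaled tags), fold (a ratio with a pseudocount of 1 on both sides), −log10 q-values, and a score equal to the whole part of 10 times that −log10 value. The authors' HOMER table adds annotation, distance and nearest gene. A pileup divided by the scale gave whole tags within 0.02 of a tag for all 50869 peaks. The input level was recovered as pileup plus 1, divided by fold, minus 1.

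Python 3.11.15, pandas 2.3.3, numpy 2.4.6, scipy 1.17.1 and matplotlib 3.10.9 were used, after a check on simulated data. Gene names came from Entrez IDs in a RefSeq table of GRCm38.p6, which matched 4567 members. Shares of genes were set beside 21031 protein-coding genes that have a curated transcript. Named genes are those of the 20 strongest members, the 10 genes with most members, the 5 members of highest pileup and the 5 longest, up to 4 genes a list, and 3 peaks on each side of a bound. Exceptions are named in the text, and some genes that the rule takes in are not reported here. Members and lists were chosen with earlier results of these data known. Motif counts in peak windows were planned and not run, since no mm9 genome was used here. Alternatives tried were a stricter q-value, repeats kept, other bounds and gaps, summit distance, and protein-coding genes only, with 3 more chosen after seeing the data.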

Additional observations from a re-analysis of the deposited data

How the results depend on the processing

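Among the recomputed main values, 59 moved by less than their counting interval or stayed within 1.5 times a count, and 29 moved. The fold-based shares of the class depended most on the q-value limit, which is built on the same tags. At a −log10 q of at least 5, 1112 members at 813 genes were left, with a median of 5.51-fold, 87.8% at 5-fold, 3.87% at 10-fold, 22.7% among the top 10% by q-value, 39.1% with a neighbour, 54.5% of genes with a promoter peak, and 49 list genes in place of 92. With repeats and CpG islands kept there were 8365 members at 4435 genes, 0.670% at 10-fold, 53.0% with a neighbour and 54.8% of genes with a promoter peak. The upstream share was 63.6% with an upper bound of 50 kb, 56.3% with a lower bound of 20 kb and 62.2% at protein-coding genes. The neighbour share was 64.7% and 61.0% at those bounds, 49.99% at a gap of 5 kb and 83.4% at 25 kb. The promoter share was 73.6% for protein-coding genes and 72.1% within 5 kb of the TSS. With 1 member per linked group, chosen for its fold after seeing the data, 2943 members had a median of 4.32-fold, 26.7% at 5-fold, 1.46% at 10-fold, 7.37% among the top 10% by q-value and 42.4% with a neighbour. Of the counts of genes per list, 59 stayed within 1.5 times and 21 moved, of which 20 were lower at the stricter q-value or higher with repeats kept. The other was the gastric endocrine list, with 1 gene in place of 2 once members at high input, a setting chosen after seeing the data, were left out.

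No paired analysis was possible because the peaks were called on pooled pull-downs, which also left no replicate to leave out. The summit distance could be computed for 4160 members, and the others kept the centre distance. The motif alternatives were not run. Depth limits single peaks: a typical member rests on 21 tags, so folds of neighbouring rank overlap within counting error.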
